A study of Mus musculus with 19 samples.

Results

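The comparison set DBA/2 mice against B6 mice at 4 w after CAWS administration, with 4 of the 18 RNA samples of the series. It holds the arrays titled for DBA/2 mice at 4 w, replicates 1 and 2, and those titled for B6 mice at 4 w, replicates 1 and 2, which the labels call biological replicates. CAWS is the water-soluble fraction of Candida albicans, a complex of mannoprotein and β-glucan, given by intraperitoneal injection on consecutive days, and 0 w is the time right after the last injection. The treatment is used as a model of vasculitis of the coronary arteries and aorta, in which both strains develop arteritis, severe and mostly fatal in DBA/2 mice and milder in B6 mice. All 4 samples came from male mice that had received CAWS, at 5 to 14 weeks of age, and that were alive at 4 w, so that they describe survivors of the course. Mice without CAWS at 4 w were not analysed here, and the strain difference therefore holds both inherited differences and different courses after CAWS. RNA was prepared from the leukocytes of whole blood (the study calls them PBMCs), and the sources used here do not say whether a sample is 1 mouse or a pool, so that p-values measure only the spread between these samples.

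Leukocytes in blood are a mixture of neutrophils, monocytes, lymphocytes and a residue of red cells and platelets, and the strain of a mouse sets both their proportions and the alleles they express. β-Glucan and mannan of fungi are recognised by lectin receptors and Toll-like receptors on myeloid cells, complement proteins deposit on fungal particles, and interferon γ from T and NK cells activates monocytes and macrophages. In bulk RNA of this kind, fewer cells of a type and less RNA per cell cannot be told apart.

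Each RNA had been labelled with Cy3 and hybridized to a single-color Agilent array of the mouse genome. A level below is the log2 of the processed spot signal minus the 75th percentile of that array, taken over probes well above background on all 19 arrays, and a difference is the DBA/2 level minus the B6 level at 4 w, with the SE of the fit. A probe counts as well above background on an array by the scanner software's own call. Across 11536 probes bright enough for this call on every array, levels correlated at 0.995 between the B6 samples, at 0.988 between the DBA/2 samples and at 0.947 to 0.950 between strains. The DBA/2 arrays were the brighter ones, with 75th percentiles of 486 and 479 intensity units against 271 and 283 on the B6 arrays, and 51.3% and 34.9% of their spots were well above background against 41.4% and 42.3%. Each of the 4 samples lay on a slide of its own, and the slides of both DBA/2 samples held only DBA/2 mice, so that slide and sample cannot be told apart.

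The labels were checked with genes known to differ between these inbred strains. H2-Ea, the class II chain that B6 mice do not express, had levels of -1.05 and -1.17 in DBA/2 mice and -4.16 and -6.59 in B6 mice, with 1 of the 2 B6 arrays well above background, and the difference was 4.27 (SE 0.90, adjusted p = 0.00538). Without B6 replicate 1 it was 5.49 and without B6 replicate 2 3.05. Alad, a heme synthesis enzyme whose gene is duplicated in DBA/2 mice, was higher by 1.19 (SE 0.07, adjusted p = 1.69e-06). The library labels and these genes ran the same way. The probes of Glo1, a glyoxalase, did not settle a direction, with differences of -1.50 and 0.44, both past the threshold. Hc, which encodes the complement protein that DBA/2 mice lack in serum, was near background in both strains (levels of -5.14 and -6.27 in DBA/2 mice and -4.62 and -5.53 in B6 mice).

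Of 22937 probes tested with limma, 7365 differed between the strains at 4 w at a Benjamini-Hochberg adjusted p under 0.05, which is 32.1% of the probes, with 4373 higher (19.1%) and 2992 lower (13%) in DBA/2 mice. Among the 13434 that all 4 arrays had well above background, 5654 differed, and 1335 of these did so at least 2-fold, 559 higher and 776 lower, for 479 and 588 genes. A further 256 of 339 probes that were well above background in DBA/2 mice alone were higher there, and 133 of 172 that were so in B6 mice alone were lower in DBA/2 mice. The median difference over all tested probes was 0.06 and its median SE 0.22. The log2 differences of replicate 1 and of replicate 2, which were scanned on different days, correlated at 0.805 across the 13434 probes, which are not independent replicates, and had the same sign for 81.6% of them. Of 740 genes with 2 or more such probes past the threshold, 60 (8.11%) had probes in opposite directions. After normexp background correction, which adds an offset of 50 intensity units to every spot, the median over all probes was -0.53 and 1569 probes differed, 34.7% of them higher in DBA/2 mice against 59.4% without that correction. With the same correction followed by quantile normalization, 6812 differed and 97.1% of the 1335 were called again, and in the deposited value table without scaling 13461 differed, 94.4% of them higher.

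**Figure D1:**
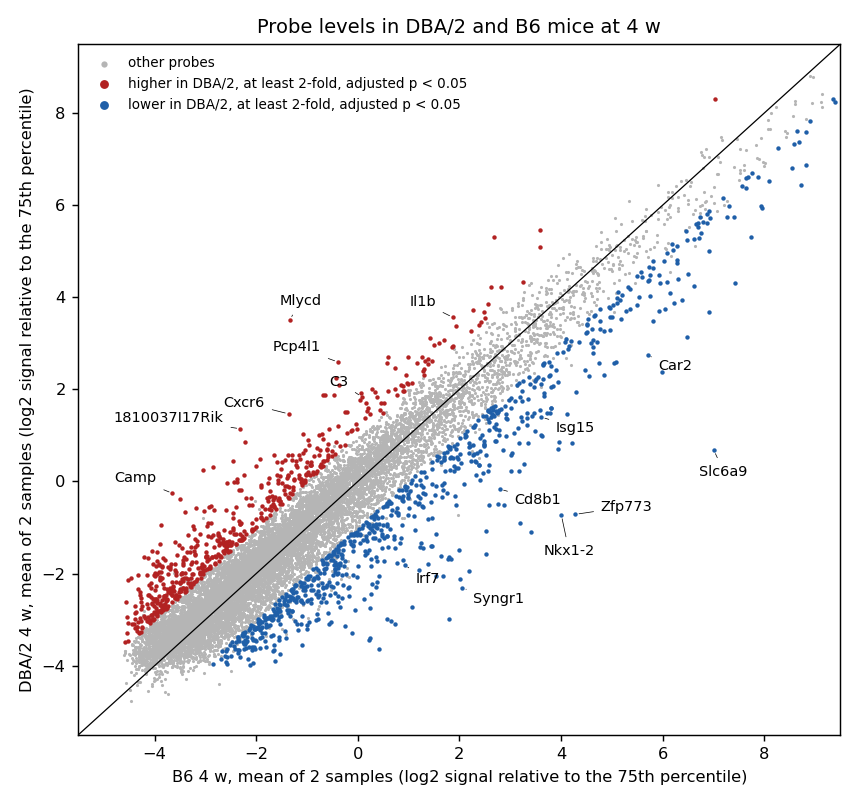
Mean level of each probe well above background on all 4 arrays, in B6 mice (x axis) and DBA/2 mice (y axis) at 4 w, both as log2 signal relative to the array's 75th percentile, with probes past the threshold and at least 2-fold apart in red (559) and blue (776) and the line of equal levels in black. Slc6a9 lies below the line with a difference of -6.33 and Mlycd above it with 4.85.

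The markers of blood cells divided by lineage. Most neutrophil, monocyte and tissue macrophage markers were higher in DBA/2 mice, most erythroid and platelet markers were lower, and T cell and NK cell markers went both ways. Of 18 tested neutrophil markers 16 were higher and none lower (median difference 0.96), of 17 monocyte markers 14 and none (0.89), and of 11 tissue macrophage markers 9 and none, against 19.1% higher and 13% lower over all probes. Of 17 erythroid markers 12 were lower and 3 higher (median -1.10), and of 15 platelet markers 9 were lower and none higher (median -0.55). After normexp correction 7 neutrophil, 5 monocyte and 3 tissue macrophage markers passed as higher and 12 erythroid and 3 platelet markers as lower. With quantile normalization added, the platelet list had 5 higher and 6 lower (median -0.09), so that its direction depended on the processing. The summed erythroid level, in units of the 75th percentile, was 2450 and 2305 in DBA/2 mice against 4950 and 4614 in B6 mice, and that of platelets 532 and 498 against 688 and 653. The summed neutrophil level was 365 and 338 against 152 and 142. Such sums mostly reflect the brightest members of a list. These sums did not overlap between the strains, and their part in the differences of other genes was not tested.

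Camp, the cathelicidin of neutrophil granules, had levels of -0.23 and -0.29 in DBA/2 mice and -3.82 and -3.47 in B6 mice, a difference of 3.39 (SE 0.12, adjusted p = 8.48e-08). Csf3r, the receptor for granulocyte colony-stimulating factor, differed by 1.75 and the calprotectin genes S100a8 and S100a9 by 0.89 and 1.29. Ltf (lactoferrin), another granule protein, was higher by 2.74. Among monocyte markers, Ccr2, the receptor that lets monocytes leave the marrow, had levels of 0.56 and 0.59 against -1.45 and -1.29 (difference 1.95, SE 0.08, adjusted p = 1.85e-07), and Adgre1, which encodes F4/80, differed by 1.75. Csf1r, the receptor for the macrophage growth factor, was higher by 0.85 by its brightest probe, and other probes of it differed by -0.74 and 0.49 and did not pass the test. On the erythroid side, Car2 (carbonic anhydrase) and Ank1 (ankyrin of the red cell membrane) were lower, with differences of -2.97 and -2.29. Tfrc, the transferrin receptor of red cell precursors, was higher by 0.91, and so were the transcription factor Klf1 by 1.76 and Ermap by 1.11, which did not pass the test with most single samples left out. Of the platelet genes, the integrin gene Itgb3 differed by -1.65 and Pf4 (platelet factor 4) by -0.82. Another probe of Itgb3 differed by -0.68 and did not pass the test.

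B cell markers were higher in 5 of 17 and lower in none, against 19.1% and 13% over all probes, and plasma cell markers in 5 of 9. After normexp correction 1 B cell marker and no plasma cell marker passed the test, and the T cell list had 1 higher and 2 lower. Jchain, the joining chain of secreted antibodies, was higher by 1.39 and the B cell surface gene Cd22 by 0.58. Of 20 T cell markers, 7 were lower and 3 higher. Il7r, the receptor for interleukin 7, was lower (difference -0.82), whereas Cd3g, a chain of the T cell receptor complex, was higher by 0.90. Cd8b1 was lower by its brightest probe (difference -2.97) and higher by another (difference 0.58), both past the threshold, and Cd8a, the partner chain, was lower (difference -0.85, adjusted p = 0.00332). Basophil and eosinophil markers were higher in 7 of 12 and lower in none, against 19.1% higher and 13% lower over all probes. After normexp correction none of the 12 passed the test and the median turned from 0.80 to -0.29. The 7 included the basophil protease Mcpt8, which was not well above background in B6 mice and at least 6.53-fold higher in DBA/2 mice, and the mast cell and basophil protease Cpa3, at least 6.74-fold.

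Hepatocyte RNA, which stands out in other samples of the series, was low in all 4. Of 24 tested hepatocyte markers, 15 were well above background on none of the 4 arrays. In DBA/2 mice 3 were higher and none lower, against 19.1% higher and 13% lower over all probes, with a median difference of -0.11. Those 3 were Alb (albumin), Fabp1 (liver fatty acid-binding protein) and Mup1 (major urinary protein), which were well above background on both DBA/2 arrays and on neither B6 array. Fabp1 had levels of -2.51 and -2.56 in DBA/2 mice and was at least 4.69-fold higher, and Mup1 at least 4.76-fold. For Alb the bound was 1.81-fold, and between 1.09-fold without DBA/2 replicate 2 and 3.00-fold without DBA/2 replicate 1. The summed hepatocyte level was 1.09 and 1.89 in DBA/2 mice against 1.25 and 1.26 in B6 mice, which overlap. After normexp correction no hepatocyte marker passed the test.

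**Figure D2:**
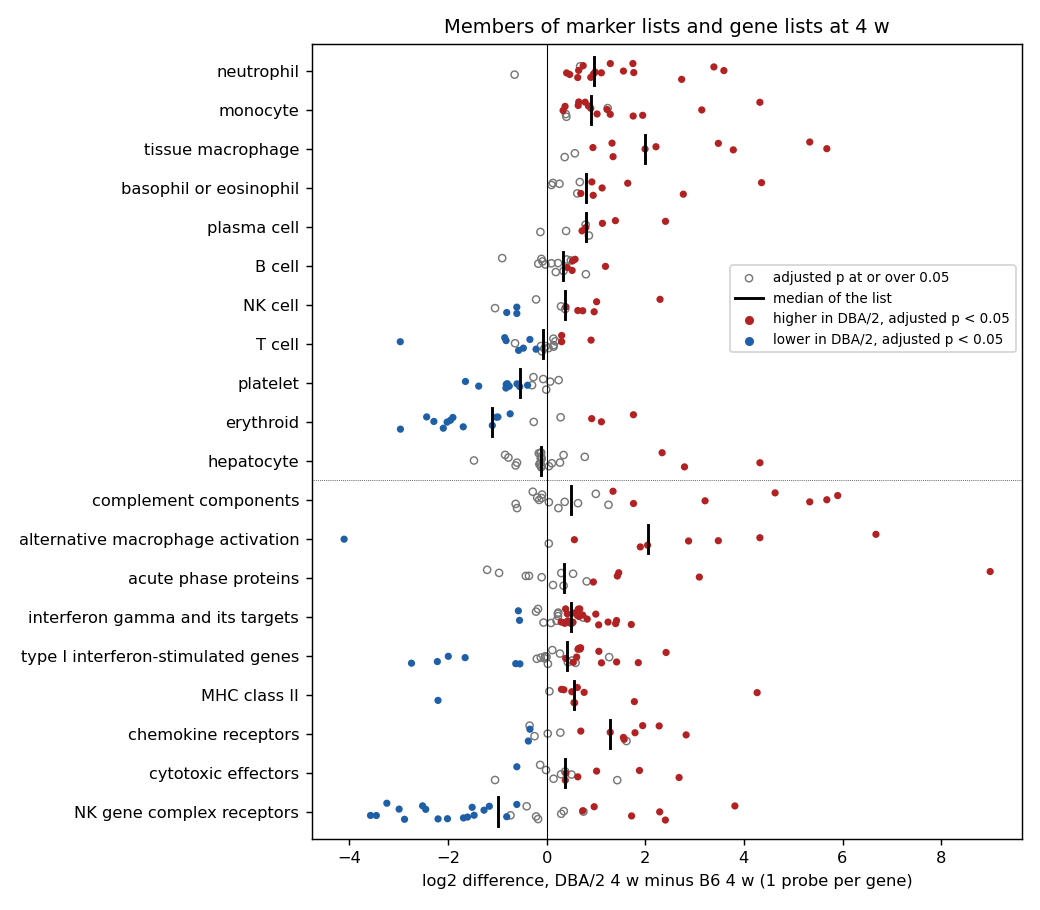
Difference of every tested member (1 probe per gene) of 11 marker lists, above the dotted line, and of 9 gene lists below it, as log2 of DBA/2 4 w minus B6 4 w, with filled points past the threshold and a black bar at the median of each list. The medians run from -1.10 for erythroid markers to 2.05 for alternative macrophage activation.

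Of 20 tested complement components 7 were higher in DBA/2 mice and none lower, against 19.1% and 13% over all probes, and 7 of the 20 were well above background on none of the 4 arrays. C3, the component on which all pathways of activation meet, had levels of 1.86 and 1.82 in DBA/2 mice and 0.06 and 0.10 in B6 mice, a difference of 1.76 (SE 0.07, adjusted p = 1.39e-07). C4b, a component of the classical and lectin pathways, stood at 0.24 and 0.23 in DBA/2 mice and was not well above background in B6 mice, so that it was at least 32.0-fold higher (adjusted p = 1.37e-06). Cfb, factor B of the alternative pathway, had levels of -1.68 and -1.93 in DBA/2 mice and was at least 7.77-fold higher. The strains did not overlap in any of the 3 genes, all of which had passed the test.

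The chains of C1q, which starts the classical pathway and is made by macrophages, did not move together. C1qa had levels of -1.25 and -1.21 in DBA/2 mice against -6.56 and -6.56 in B6 mice, and C1qc -0.82 and -0.82 against -6.20 and -6.80. Both were not well above background in B6 mice, and C1qa was at least 11.6-fold and C1qc at least 15.4-fold higher in DBA/2 mice. C1qb stood at -0.03 and 1.00 in DBA/2 mice and 0.05 and 0.19 in B6 mice, with a difference of 0.37 that did not pass the test (adjusted p = 0.663), and its strains overlapped. Fcna, a ficolin that recognises sugars and triggers the lectin pathway, was at least 7.29-fold higher. After normexp correction 3 of the 7 higher components still passed the test and the median of the list turned from 0.50 to -0.55, and after normexp with quantile normalization 6 passed.

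Complement receptors and regulators were mixed, with 6 higher and 3 lower among 18 tested, against 19.1% higher and 13% lower over all probes. After normexp correction 2 higher and 2 lower passed the test. Itgam, the α chain of complement receptor 3 (Mac-1), had levels of -1.48 and -1.69 against -3.58 and -3.53 (difference 1.97, SE 0.12, adjusted p = 2.41e-06), and C5ar2, an anaphylatoxin receptor, was higher by 0.88. The regulators Cd59a and Cd59b, which block the membrane attack complex on host cells, were lower, with differences of -1.88 and -1.66. Cd55 (decay-accelerating factor) and Cr2 (complement receptor 2 of B cells) had differences of -0.13 and -0.03 and did not pass the test.

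**Figure D3:**
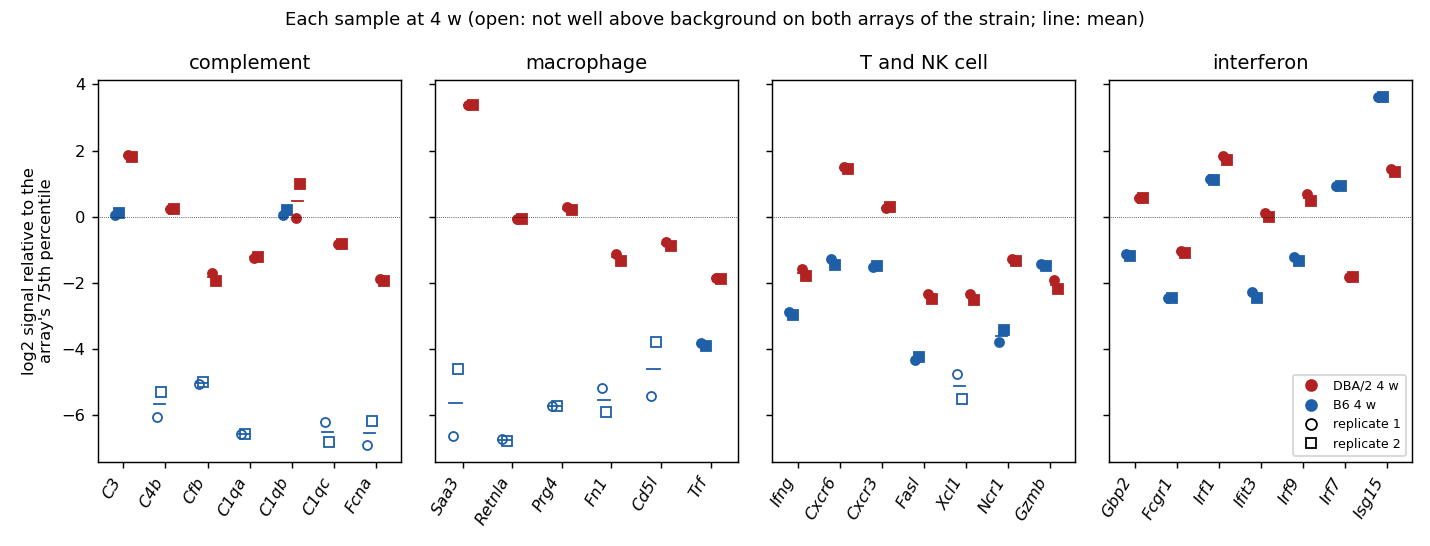
Level of 27 genes in each of the 4 samples (y axis, log2 signal relative to the array's 75th percentile), with DBA/2 samples in red, B6 samples in blue, circles for replicate 1, squares for replicate 2 and short lines at the means. Open symbols mark a gene that was not well above background on both arrays of that strain. For 26 of the 27 genes the strains do not overlap, and C1qb is the exception. The genes other than C1qb had passed the strain test, so that their separation was largely fixed by that choice. The share of all probes that separate the strains was not counted.

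The largest of the differences named here was that of Saa3, a serum amyloid A protein made by macrophages. Its levels were 3.38 and 3.37 in DBA/2 mice and -6.62 and -4.61 in B6 mice (probe at chr7:46580703-46580762, mm8), neither of the latter well above background, and it was at least 267-fold higher in DBA/2 mice (adjusted p = 9.4e-07). The fitted difference was 8.99, and with 1 sample left out the bound stayed between 253-fold and 282-fold. Saa1, the liver-type form, had levels of 2.93 and 3.00 against 1.25 and 1.76 by its brightest probe. Another probe of Saa1 was well above background on none of the 4 arrays, and its difference of 0.49 did not pass the test. Haptoglobin (Hp) was higher by 1.43. Over the acute phase list, 5 of 15 were higher and none lower, against 19.1% higher and 13% lower over all probes, and 3 of them passed after normexp correction, where the median turned from 0.34 to -0.60.

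Genes of alternatively activated and tissue macrophages followed. Retnla, a secreted product of macrophages stimulated by interleukin 4, had levels of -0.08 and -0.06 in DBA/2 mice and -6.70 and -6.79 in B6 mice and was at least 25.9-fold higher. Prg4 (lubricin) stood at 0.30 and 0.20 and Fn1 (fibronectin) at -1.12 and -1.33 in DBA/2 mice, and both were at least 32.3-fold and 11.6-fold higher than in B6 mice. Neither gene was well above background on a B6 array. Cd163, the hemoglobin scavenger receptor of macrophages, was at least 2.37-fold higher. Trf (transferrin) differed by 2.00 with levels of -1.86 and -1.87 against -3.80 and -3.92. After normexp correction the difference of Cd163 was -0.08 and did not pass the test. Cd5l, a macrophage survival protein, differed by 3.78, and by 2.96 or 4.61 without B6 replicate 1 or 2.

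In all, 7 of 9 tested genes of alternative macrophage activation were higher and 1 was lower, against 19.1% higher and 13% lower over all probes. The median was 2.05, or 1.90 with genes not well above background in 1 strain set at their bound. After normexp correction the list had 3 higher and 1 lower with a median of 0.03, and with quantile normalization added 7 higher and 1 lower with a median of 0.65. The lower one was Ccl17, a chemokine for T cells, with levels of -1.84 and -1.49 in B6 mice and not well above background in DBA/2 mice. The summed tissue macrophage level was 5.51 and 6.18 in DBA/2 mice against 1.93 and 2.10 in B6 mice, and the summed monocyte level 215 and 203 against 164 and 156. The part of these cells in the macrophage and complement genes was not tested.

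Most tested genes of the interferon γ list were higher in DBA/2 mice. Ifng itself, the cytokine gene expressed by T and NK cells, had levels of -1.57 and -1.80 in DBA/2 mice and -2.88 and -2.98 in B6 mice, a difference of 1.25 (SE 0.12, adjusted p = 4.64e-05), and a second probe differed by 1.88. Of 34 tested members of its list 23 were higher and 2 lower, against 19.1% higher and 13% lower over all probes. Their median was 0.49 against 0.06 over all probes. Irf1, a transcription factor that it induces, was higher by 0.66. Among the effectors, Gbp2, a guanylate-binding protein, had levels of 0.57 and 0.56 against -1.11 and -1.19 (difference 1.72, SE 0.12, adjusted p = 5.27e-06). Fcgr1, the high-affinity IgG receptor of monocytes, differed by 1.40 (adjusted p = 5.69e-06), and Psmb9, a subunit of the immunoproteasome, by 0.73. Another, dimmer probe of Fcgr1 differed by -0.07 and did not pass the test. After normexp correction 6 of the 25 still passed the test, and 23 did after normexp with quantile normalization.

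Type I interferon-stimulated genes, which share many inducers with that list, went both ways. Of 30 tested, 12 were higher and 6 lower (4 higher and 3 lower after normexp correction), against 19.1% higher and 13% lower over all probes. Irf7, the amplifier of interferon α transcription, had levels of -1.83 and -1.81 in DBA/2 mice and 0.92 and 0.93 in B6 mice, a difference of -2.74 (SE 0.09, adjusted p = 8.21e-08). Isg15, a ubiquitin-like protein, stood at 1.44 and 1.36 against 3.61 and 3.62 (difference -2.22, adjusted p = 2.25e-07), and the exonuclease gene Isg20 was lower (difference -1.65). In the other direction, Ifit3, an antiviral effector, had levels of 0.11 and -0.02 against -2.28 and -2.47 (difference 2.42, adjusted p = 3.66e-06), Irf9, a subunit of the factor that binds their promoters, was higher by 1.86, and Rtp4 by 1.42. Each of these genes passed the test, so that the list did not hold a single direction. The differences of Irf7, Isg15 and Isg20 were of the same sign at 0 w, 2 w, 8 w and 9 w, and smallest at 8 w (-0.90, -0.19 and -0.12).

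Promoters of genes that moved in opposite directions are shown to place the elements through which interferons act. Windows of 300 bases, from 250 before to 50 after the annotated start, were taken from RefSeq (GRCm38.p6), and capitals mark matches to TTCNNNGAA, the palindrome of the interferon γ-activated site, or to GAAANNGAAA on either strand, the core of the interferon-stimulated response element, where overlapping matches run together.
Irf1, chr11:53769764-53770063, plus strand: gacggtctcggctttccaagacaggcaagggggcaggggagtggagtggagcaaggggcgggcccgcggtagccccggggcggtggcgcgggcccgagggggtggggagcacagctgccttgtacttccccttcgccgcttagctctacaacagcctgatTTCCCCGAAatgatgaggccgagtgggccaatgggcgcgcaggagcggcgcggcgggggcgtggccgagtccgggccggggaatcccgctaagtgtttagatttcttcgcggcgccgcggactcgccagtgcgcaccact
Fcgr1, chr3:96293920-96294219, minus strand: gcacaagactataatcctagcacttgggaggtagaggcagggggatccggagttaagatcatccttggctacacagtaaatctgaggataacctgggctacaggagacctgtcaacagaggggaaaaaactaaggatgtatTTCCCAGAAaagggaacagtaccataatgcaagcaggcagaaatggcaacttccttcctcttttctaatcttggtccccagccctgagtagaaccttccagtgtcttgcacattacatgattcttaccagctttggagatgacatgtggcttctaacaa
Gbp2, chr3:142620413-142620712, plus strand: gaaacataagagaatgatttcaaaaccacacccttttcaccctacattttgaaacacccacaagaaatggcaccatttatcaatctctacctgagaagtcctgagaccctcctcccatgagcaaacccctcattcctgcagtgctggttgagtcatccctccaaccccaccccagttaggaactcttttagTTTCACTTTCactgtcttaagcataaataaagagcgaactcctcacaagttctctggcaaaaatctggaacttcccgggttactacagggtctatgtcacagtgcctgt
Ifit3, chr19:34583279-34583578, plus strand: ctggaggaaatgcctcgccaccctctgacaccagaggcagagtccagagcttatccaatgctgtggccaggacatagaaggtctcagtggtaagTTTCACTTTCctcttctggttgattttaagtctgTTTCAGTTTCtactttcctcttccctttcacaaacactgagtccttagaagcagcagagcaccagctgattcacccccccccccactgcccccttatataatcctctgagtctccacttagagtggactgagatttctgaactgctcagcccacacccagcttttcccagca
Isg15, chr4:156200769-156201068, minus strand: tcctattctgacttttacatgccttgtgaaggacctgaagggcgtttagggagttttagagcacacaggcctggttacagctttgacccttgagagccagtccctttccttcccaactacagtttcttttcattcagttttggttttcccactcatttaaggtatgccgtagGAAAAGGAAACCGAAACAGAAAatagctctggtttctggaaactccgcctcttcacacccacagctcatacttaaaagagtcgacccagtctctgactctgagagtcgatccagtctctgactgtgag
The first motif was found in 11 of 29 windows of the interferon γ list (37.9%), 7 of 30 of the type I list (23.3%) and 4 of 21 of the complement components (19.0%), against 8.30% of 32851 windows in all. The second was found in 9 of 29 (31.0%), 15 of 30 (50%) and 0 of 21, against 3.44%. Ifit3, which was higher in DBA/2 mice, and Isg15, which was lower, both carried the second motif. These genes were picked as examples, and whether the motif went with a direction over the list was not tested. Irf1 has another annotated start, whose window (chr11:53770223-53770522) held neither motif and is not shown. A match is a stretch of letters and not a measured site.

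Of 15 tested chemokine receptors 8 were higher in DBA/2 mice and 2 lower, against 19.1% higher and 13% lower over all probes. After normexp correction 4 higher and none lower passed the test and the median turned from 1.29 to -0.11, and with quantile normalization added the list had 9 higher and 2 lower with a median of 0.32. Cxcr6, the receptor for CXCL16 on activated T and NK cells, had levels of 1.50 and 1.44 in DBA/2 mice and -1.27 and -1.45 in B6 mice, a difference of 2.83 (SE 0.12, adjusted p = 1.82e-07). Cxcr3, the receptor for interferon-induced chemokines, stood at 0.26 and 0.30 against -1.52 and -1.50 (difference 1.79). Ccr7, which leads naive T cells to lymph nodes, was lower (difference -0.34). These 3 receptors, all of which had passed the test, separated the strains.

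Cytotoxic effectors gave 6 higher and 1 lower of 15, against 19.1% higher and 13% lower over all probes. After normexp correction 2 higher and none lower passed the test. Fasl, the death ligand of killer cells, had levels of -2.32 and -2.48 against -4.32 and -4.24 (difference 1.88, adjusted p = 2.22e-06), and Xcl1, a chemokine of activated NK and CD8+ T cells, was at least 4.99-fold higher. Nkg7, a granule protein, was higher by 0.63. Gzmb (granzyme B) was the lower one, with levels of -1.92 and -2.18 against -1.42 and -1.47 and a difference of -0.60 (adjusted p = 0.00329). Ncr1, the activating receptor NKp46 that marks NK cells, stood at -1.26 and -1.34 against -3.77 and -3.43 (difference 2.30, adjusted p = 1.93e-06). Of 13 NK cell markers 6 were higher and 3 lower (3 higher and none lower after normexp correction).

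The receptors encoded in the NK gene complex on chromosome 6, which differ in number and sequence between inbred strains, were mostly lower. Of 30 tested, 17 were lower and 6 higher, against 13% lower and 19.1% higher over all probes, with a median of -0.99. After normexp correction 1 higher and 4 lower passed the test. Klra10, a receptor of the Ly49 family, had levels of -2.58 and -2.64 in B6 mice and did not rise well above background in DBA/2 mice, and Klra15 differed by -3.45. In the other direction, Klra17 had levels of -1.86 and -1.98 in DBA/2 mice and was at least 7.20-fold higher, and Klrd1 (CD94), the partner chain of the NKG2 receptors, was higher by 0.73. Members of the Klra family are near-identical copies, so that a probe can read more than 1 of them, and the gene behind each value is uncertain.

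Among cytokines and their receptors, 18 of 36 tested genes were higher and 2 lower, against 19.1% higher and 13% lower over all probes. After normexp correction 6 higher and 1 lower passed the test and the median turned from 0.63 to -0.17. Il1b, the inflammatory cytokine of myeloid cells, had levels of 3.58 and 3.55 against 1.81 and 1.93 (difference 1.69, SE 0.08, adjusted p = 6.24e-07), and its antagonist Il1rn was higher by 1.89. Il4, a cytokine of T helper type 2 cells and basophils, stood at -2.58 and -2.66 against -4.40 and -4.12 (difference 1.64), and Tgfb1, the transforming growth factor gene that platelets store, was lower (difference -0.75). Of 17 chemokines, 8 were higher and 2 lower (2 higher and 1 lower after normexp correction), among them Ccl24, an eosinophil attractant of alternatively activated macrophages, by 2.88 (-0.33 after normexp correction) and Ccl9 by 1.29. Pf4 of platelets was one of the lower ones.

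The list on the recognition of fungi holds lectin and Toll-like receptors of myeloid cells, their signalling chain and cytokines made in response, and 12 of its 21 tested members were higher and 2 lower, against 19.1% higher and 13% lower over all probes. The 12 included cytokines, Il1b among them, and a secreted lectin besides receptors. After normexp correction 5 higher and 1 lower passed the test and the median turned from 0.92 to -0.05. Clec7a, which encodes the β-glucan receptor Dectin-1, had levels of 2.78 and 2.63 in DBA/2 mice and 0.58 and 0.61 in B6 mice, a difference of 2.11 (SE 0.08, adjusted p = 1.02e-07). Fcgr3, a low-affinity IgG receptor that signals through the same adaptor chain as several of these lectins, stood at 1.94 and 1.80 against -0.67 and -0.63 (difference 2.52), and Tlr6, a partner of Tlr2, was higher by 1.80. Tlr1, its other partner, was lower, at -2.50 and -2.53 in B6 mice and not well above background in DBA/2 mice, with a fitted difference of -3.88 that was -3.20 or -4.57 without DBA/2 replicate 1 or 2. Cd36, a scavenger receptor also carried by platelets, was lower (difference -1.995). Clec4n (Dectin-2) had levels of -3.35 and -4.03 against -1.78 and -4.36 and could not be placed, since the B6 samples differed from each other by more than the strains did. Granule proteins of neutrophils were higher in 15 of 18 and lower in none (6 and none after normexp correction), in samples whose neutrophil markers were higher too.

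Genes of antigen presentation by class II molecules were higher in 9 of 11 and lower in 1, and those of class I in 11 and 2 of 21, against 19.1% higher and 13% lower over all probes. Most of them lie in the major histocompatibility complex, whose haplotype differs between the strains, but Cd74 and Ciita of the first list, both higher, and Mr1 of the second, also higher, are among those that lie outside it. After normexp correction 4 members of each list passed the test, all of them higher. H2-Aa had levels of 1.57 and 1.47 against -0.29 and -0.23 by its brightest probe (difference 1.78), but another of its probes was lower (difference -1.33). For H2-Ab1 the brightest probe differed by 0.76, another by 0.98, and the remaining 2 by -0.55 and -0.67, all past the threshold. These are the antigen-presenting α and β chains, so that their direction depends on the probe. H2-DMb1, which loads peptides and is less variable, was higher by 0.62, and H2-Ob, its B cell inhibitor, was lower (difference -2.20). Of the class I genes, H2-T23 (Qa-1) was higher by 0.82. The overlap of probes with sequence variants between the strains was not examined here.

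The strain difference at 4 w was set against its mean at 0 w, 2 w, 8 w and 9 w, whose samples it does not share. It departed from that mean for 4695 of 22922 probes (20.5%), 2901 toward DBA/2 mice, and from the mean of 2 w and 9 w alone for 5101 (22.3%), 3044 toward DBA/2 mice. With the 75th percentile taken over all probes, 50.4% of the first and 49.2% of the second were toward DBA/2 mice, against 61.8% and 59.7%. The 2 references differ in hepatocyte RNA, whose markers had a median strain difference of -6.24 at 0 w and -5.86 at 8 w against -0.54 at 2 w and -0.01 at 9 w. For 3829 probes both tests passed. Past all 3 tests and at least 2-fold in both departures were 392 probes toward DBA/2 mice and 233 toward B6 mice. The B6 samples at 2 w and 9 w are 1 each and are taken to vary like the rest.

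Both strains departed from their own other weeks, in a comparison added after the data were seen. In B6 mice, 5213 of 22924 probes (22.7%) at 4 w differed from the mean of the other B6 weeks, 3372 of them lower, and in DBA/2 mice 1600 of 22935 (6.98%) did, 879 of them lower. Both B6 samples at 4 w lay below all 6 other B6 samples for 16.2% of the 22939 probes and above all of them for 5.22%, and both DBA/2 samples lay above all 8 other DBA/2 samples for 2.82%. By list, the B6 samples lay below all others for 13 of 17 B cell markers, 11 of 17 monocyte markers, 9 of 13 NK cell markers, 9 of 11 class II genes and 16 of 34 genes of the interferon γ list. Other lists lay under the 16.2% over all probes, among them 1 of 18 neutrophil markers, 2 of 20 T cell markers and 1 of 21 genes of fungal recognition. Against the mean of the other B6 weeks, 15 of 15 platelet and 14 of 17 erythroid markers passed the test as higher at 4 w. Over all probes 1841 of 22924 did. In DBA/2 mice 13 of 17 erythroid markers passed as lower than the mean of the other DBA/2 weeks. Fewer lay beyond all other samples of their strain. These were 4 platelet markers and 1 erythroid marker above them in B6 mice, against 5.22% of all probes. In DBA/2 mice 8 erythroid markers lay below them, against 3.31% of all probes. The part of these cells in the other lists was not tested.

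C4b showed both sides. The other B6 samples ranged from -2.43 to -0.27 and the other DBA/2 samples from -2.99 to -1.39, so that B6 mice at 4 w, at -6.05 and -5.29, lay below all of the first, and DBA/2 mice at 4 w, at 0.24 and 0.23, above all of the second. Saa3 did the same, with the other B6 samples between -1.99 and 2.11 and the other DBA/2 samples between -4.25 and 1.10. C1qa, C1qc, Prg4, Fn1, Fcna, Trf, Ccl24, Cxcr3 and Fasl shared this pattern. Adgre1 and Cxcr6 did so by a narrow margin on 1 side, Adgre1 in DBA/2 mice (0.52 and 0.40 at 4 w, at most 0.37 elsewhere) and Cxcr6 in B6 mice (-1.27 and -1.45, at least -1.22 elsewhere). Retnla was below the other weeks in B6 mice, but in DBA/2 mice its levels of -0.08 and -0.06 at 4 w were those of 8 w (-0.09 and -0.08). In the other weeks C4b was called higher in DBA/2 mice at none, and it was lower at 0 w (difference -1.59, adjusted p = 0.00284). C3, at 0.06 and 0.10 in B6 mice, was below the other B6 samples (0.50 to 3.14) but within the range of the DBA/2 ones, and Ifng was above the other DBA/2 samples (-3.58 to -1.86) but within the range of the B6 ones. The departures from the mean of 2 w and 9 w were 6.45 for C4b, 1.27 for C3, 1.47 for Ifng and 2.38 for Cxcr6, with adjusted p of 5.43e-05, 5.86e-05, 0.000326 and 4.22e-05.

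**Figure D4:**
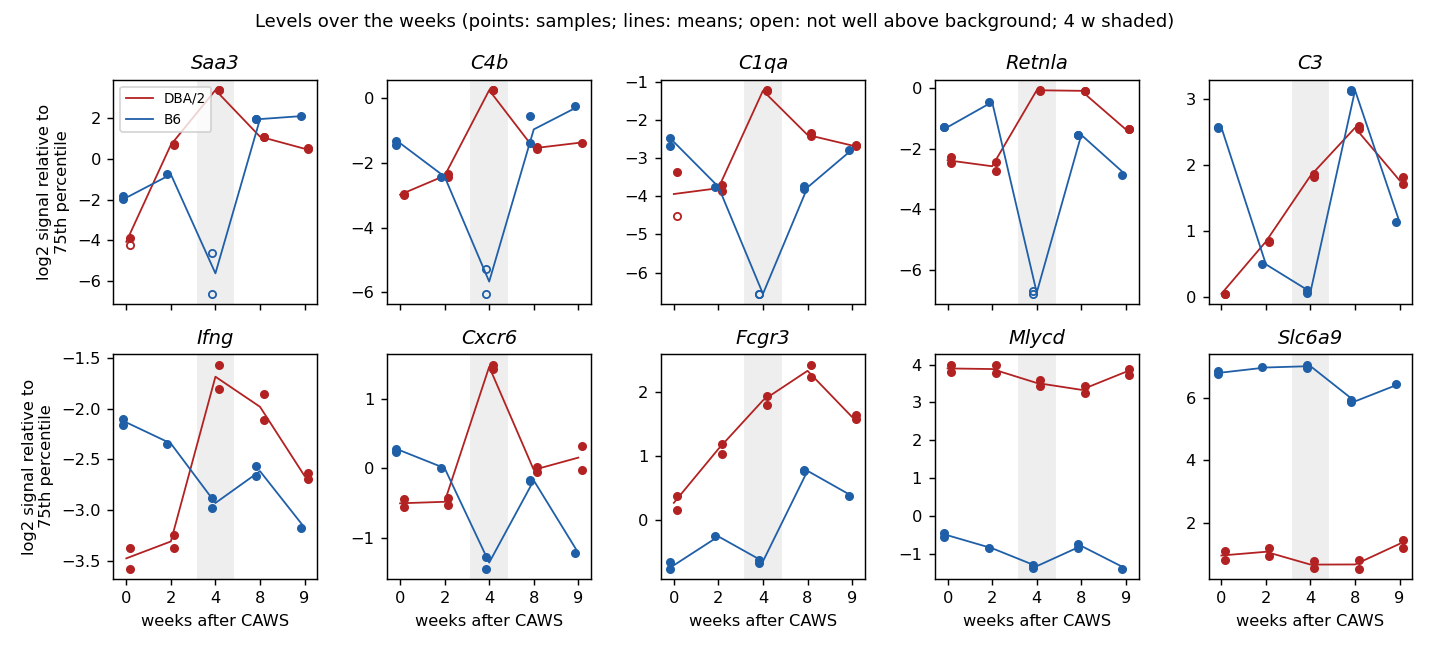
Levels of 10 genes (y axis, log2 signal relative to the array's 75th percentile) at 0, 2, 4, 8 and 9 weeks after CAWS administration (x axis, evenly spaced), with a point per sample, lines through the means of DBA/2 mice (red) and B6 mice (blue), open points for samples not well above background and 4 w shaded. In Saa3, C4b, C1qa and Retnla the blue line has its lowest point at 4 w, and Mlycd and Slc6a9 keep the strains apart in every week.

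Many of the largest differences at 4 w were present in every week. Probes past the threshold in the same direction at all 5 weeks numbered 450 higher and 493 lower in DBA/2 mice, and 1618 higher and 623 lower were past it at 4 w in no other week, although a miss in another week does not show that the week differs. Mlycd (malonyl-CoA decarboxylase, chr8:122296970-122297029, mm8) had levels of 3.58 and 3.44 in DBA/2 mice and -1.29 and -1.37 in B6 mice, a difference of 4.85 (SE 0.12, adjusted p = 1.26e-08), and between 4.13 and 5.20 in the other weeks. Slc6a9, a glycine transporter of red cell precursors and brain (chr4:117367162-117367221, mm8), stood at 0.56 and 0.80 against 6.96 and 7.06, a difference of -6.33 (SE 0.15, adjusted p = 1.19e-08), and between -5.88 and -5.11 elsewhere. These lay far outside the spread of the replicates in all weeks.

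Of the 12 genes with the largest differences toward DBA/2 mice among probes well above background on all 4 arrays, those given here were, after Mlycd, 1810037I17Rik (3.46), Camp (3.39), Camkk1 (3.12), Glrx (3.08), Pcp4l1 (2.98), P2ry2 (2.92), Sfi1 (2.90), Cxcr6, Ltf and Klhl20 (2.61). Camkk1 is a kinase of calcium signalling, Glrx encodes glutaredoxin and P2ry2 a receptor for extracellular nucleotides. Toward B6 mice they were, after Slc6a9, Zfp773 (-5.00), Nkx1-2 (-4.74), Syngr1 (-4.38), Glb1l (-4.12), Dhrs11 (-4.12), Tmem107 (-4.08), Mzt1 (-3.83), Senp2 (-3.79), Ube2z (-3.74), Ubap1 (-3.65) and Glul (-3.63). Zfp773 and Nkx1-2 encode transcription factors, Senp2 a SUMO protease and Glul glutamine synthetase. Other probes of Senp2 were higher in DBA/2 mice by 0.82 and 0.50, and those of Glul differed by -0.68 (the brightest) and 2.15. Both genes' values thus belong to single probes. The brightest probe of 1810037I17Rik differed by only 0.58. Another probe of Mzt1 differed by -0.56, and those of Glb1l (-1.20) and Nkx1-2 (-0.64) did not pass the test. Second probes of Syngr1, Sfi1 and Ltf differed by -4.78, 2.14 and 2.47. Syngr1, a synaptic vesicle protein, differed by -4.18 at 0 w and -3.84 at 9 w but by 0.19 at 2 w and 0.19 at 8 w.

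Of the genes well above background in DBA/2 mice alone, the 8 with the largest bounds were Saa3, Ifi202b (34.1-fold), Prg4, C4b, Ttc9 (28.9-fold), Retnla, Mnd1 (17.1-fold) and C1qc. Ifi202b, an interferon-inducible DNA-binding protein known to vary between inbred strains, had levels of 0.40 and 0.25 in DBA/2 mice and -6.98 and -6.99 in B6 mice, and a departure from the other weeks of 0.39 that did not pass the test. Of those well above background in B6 mice alone, Trim12a, a gene of the TRIM family, had levels of 1.02 and 0.93 in B6 mice and was at least 59.5-fold lower in DBA/2 mice. Then came Atcay (44-fold), Tln2 (37.2-fold), Tbx20 (33.3-fold), Vash2 (25.1-fold), 5830417I10Rik (23.6-fold), Muc2 (21.5-fold) and Zfp37 (20.7-fold). These bounds rest on the lowest detectable signal, which is higher on the array of DBA/2 replicate 2. Without DBA/2 replicate 1 they fell to 33.3-fold for Trim12a, 24.6-fold for Atcay, 20.8-fold for Tln2, 13.2-fold for 5830417I10Rik, 12-fold for Muc2 and 11.6-fold for Zfp37, and without DBA/2 replicate 2 they rose to 106-fold, 78.6-fold, 66.5-fold, 42.2-fold, 38.4-fold and 37.0-fold. The lowest bounds of Tbx20 and Vash2 with a sample left out were 19.8-fold and 10.5-fold and the highest 56.2-fold and 60.2-fold, and Tbx20 did not pass the test without B6 replicate 2. The brightest probe of 5830417I10Rik was higher in DBA/2 mice by 0.48.

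**Figure D5:**
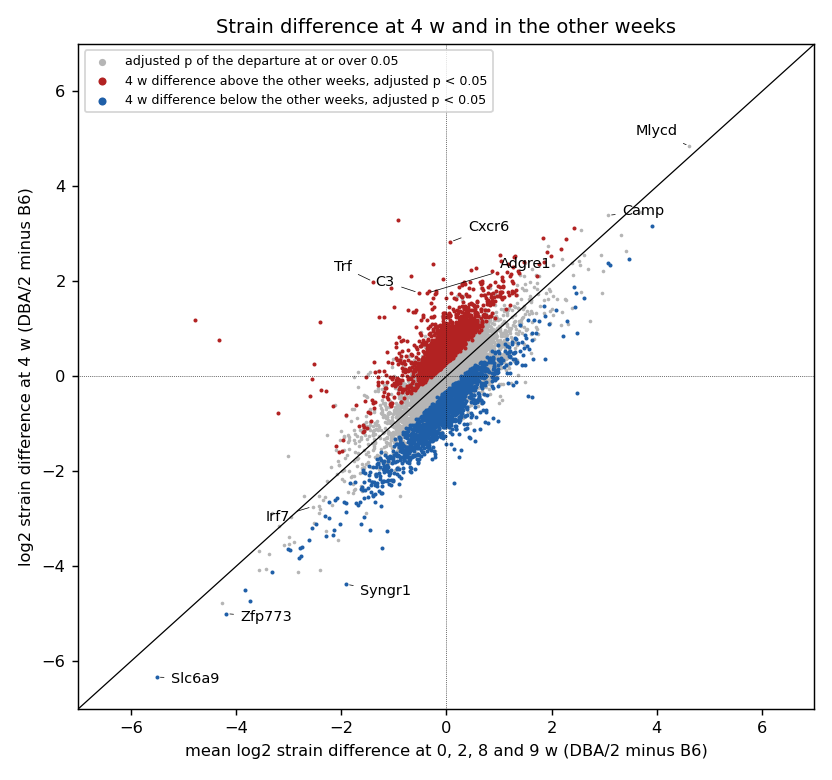
Strain difference at 4 w (y axis) against the mean strain difference at 0, 2, 8 and 9 w (x axis), both as log2 of DBA/2 minus B6, for the 13434 probes that all 4 arrays had well above background, with probes whose departure passes the test in red or blue and the line of equal differences in black. Mlycd and Slc6a9 depart from the line by 0.22 and -0.82, and Cxcr6, C3 and Trf lie 2.76, 2.29 and 3.39 above it.

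Of the genes that the study names, 46 could be tested, and 25 were higher and 6 lower in DBA/2 mice at 4 w, against 19.1% higher and 13% lower over all probes, or 7 higher and 5 lower after normexp correction. The study chose them on samples of this series, so that the count is not independent evidence of a direction. Besides those described above, Cebpb, a transcription factor of myeloid cells, was higher by 0.64, Ccl4 by 1.00, Icam1 by 0.37, Nupr1 by 1.45 and the interleukin 12 receptor gene Il12rb1 by 0.82. Lbp, which binds bacterial lipopolysaccharide, was at least 2.02-fold and Asb2 at least 2.84-fold higher. Another probe of Asb2, well above background on 1 DBA/2 array and no B6 array, differed by -0.07 and did not pass the test. Spi1 (PU.1), which directs myeloid development, differed by 2.23 but was well above background on 1 DBA/2 array and no B6 array. Smaller or less stable calls were Eif2ak2 (1.11), Zfp819 (2.27) and Brd8 (0.51) toward DBA/2 mice and the reference gene Gapdh (-0.22) toward B6 mice, which was 0.09 after quantile normalization. Icam1, Eif2ak2, Zfp819, Brd8 and Gapdh did not pass the test with at least 1 of the 4 samples left out, and the fitted difference of Asb2 (3.09) ran from 2.36 to 3.82 and that of Eif2ak2 from 0.73 to 1.50, of Zfp819 from 1.44 to 3.11. Differences that did not pass the test were those of C1ra (0.24), C5ar1 (0.83), Eif2ak4 (-0.14), Zfp36l2 (0.71) and Zfp384 (-0.09), and of Mbl1 (-0.60), Mbl2 (0.64), C9 (0.05), C1s1 (-0.15), Cfi (-0.12) and Serping1 (-0.16), which no array at 4 w had well above background. Without DBA/2 replicate 2, C1s1, Cfi and Serping1 passed it at -1.01, -0.96 and -1.01, at signals under the background limit, and without DBA/2 replicate 1 Hc did at -1.20. After normexp correction the fitted differences of Lbp, Asb2, Spi1, Il12rb1, Eif2ak2, Zfp819, Brd8 and Il4 turned negative and did not pass the test. C3ar1, C7 and Il5 were not tested, since they were well above background in no sample of the series.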

How the data were processed

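Leukocyte RNA of DBA/2 and B6 mice was hybridized to single-color Agilent arrays, 19 arrays for 18 samples in 10 groups. The authors scanned them with Agilent Feature Extraction 9.5.3.1, per the file headers, and deposited background-subtracted processed signals (intensity) with mm8 probe positions, which were used here. The deposited value table holds the same signal intensities, averaged per probe and not scaled. It was used as an alternative, and its direction and scale were checked against the scanner values.

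Control and outlier spots were dropped, spots of a probe averaged, log2 taken, and the 75th percentile over 11536 probes well above background on all arrays subtracted. The technical arrays of B6 0 w replicate 2 were averaged. Probes well above background in at least 2 samples (22939, of which 22937 had a value in the groups compared) were fitted with limma 3.58.1 (R 4.3.3) on all 18 samples with a mean per group, since 4 samples alone leave few degrees of freedom (the fit had 8 residual and 1.37 prior ones), and p-values were adjusted by Benjamini-Hochberg. The study names no test. Scripts were tested on simulated data, and the number of arrays limits the precision.

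For probes that neither array of a strain had well above background, the fold is a bound: the mean of the bright strain over the mean, per array, of the higher of the dim probe and the lowest signal among probes well above background. A gene is given by its probe of highest mean level, except where a bound or one of the 12 largest differences belongs to another probe. Genes named are the 12 with the largest difference in each direction among probes well above background on all 4 arrays, the 8 with the largest bounds, up to 4 per list and direction with others whose role makes a value needed, and those the study names. Lists and members were chosen with earlier results of these data known. Summed levels add 2 to the power of each member's level. Overlaps of probes with strain variants were not examined, and values of some genes are not reported here. Promoters and 592 list genes were matched by symbol, and 22 had no probe of that name. Alternatives covered background correction, scaling, filters, batch, weights and samples left out. Normexp followed by quantile normalization was chosen after seeing the data, and so was the comparison of each strain at 4 w with its own other weeks. That comparison was not repeated under the alternatives.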

Additional observations from a re-analysis of the deposited data

Results flagged for a closer look

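Of 156 genes given here with a value, 90 passed the test at 4 w and had a strain difference there that departed from its mean at 0 w, 2 w, 8 w and 9 w, and in the same direction from its mean at 2 w and 9 w, by limma's test of that departure at an adjusted p under 0.05 over all tested probes. For 50 of them both departures were at least 2-fold, and these are given as log2 departures from the first mean, with those from the second, where B6 mice held little hepatocyte RNA, in parentheses. Complement, acute phase and macrophage genes departed toward DBA/2 mice: Saa3 9.79 (9.07), C1qc 6.75 (6.71), Retnla 6.74 (6.99), C4b 6.72 (6.45), Prg4 6.34 (6.38), C1qa 5.31 (5.30), Fn1 5.04 (4.83), Fcna 4.71 (4.63), Cd5l 4.44 (3.92), Cfb 4.37 (3.09), Ccl24 4.06 (3.68), Lbp 3.63 (3.30), Cd163 3.45 (2.75), Trf 3.39 (2.20), Saa1 2.45 (1.75) and C3 2.29 (1.27). So did the hepatocyte markers: Fabp1 9.60 (4.89), Alb 7.57 (3.53) and Mup1 7.38 (3.35). Genes of monocytes and other myeloid cells followed with Adgre1 2.12 (2.31), Fcgr1 1.99 (2.18), Ccr2 1.65 (1.87), Itgam 1.29 (1.21), Fcgr3 1.23 (1.22), Cpa3 1.19 (1.45), Csf1r 1.15 (1.18) and Ccl9 1.10 (1.44). Genes of T cells and NK cells gave Cxcr6 2.76 (2.38), Xcl1 2.12 (1.78), Cxcr3 2.11 (1.74), Il12rb1 1.72 (1.40), Fasl 1.65 (1.54), Il4 1.64 (1.75), Ifng 1.54 (1.47), Ccl4 1.25 (1.59), Nkg7 1.13 (1.14), Gzmb 1.11 (1.21) and Ncr1 1.02 (1.18). The rest toward DBA/2 mice were Asb2 3.47 (2.33), Nupr1 1.69 (2.00), Ifit3 1.38 (1.38), Atf3 1.28 (1.43) and Rtp4 1.02 (1.02). Toward B6 mice departed Syngr1 -2.47 (-2.55), Tfrc -1.56 (-1.05), Car2 -1.39 (-1.33), Ank1 -1.22 (-1.26), Ube2c -1.07 (-1.11), Mzt1 -1.02 (-1.02) and Nkx1-2 -1.005 (-1.07). Gzmb was lower and Tfrc higher in DBA/2 mice at 4 w itself, so that their departures run against the sign of the difference.

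The liver also makes products of some of these genes, Fabp1, Alb, Mup1, Lbp, Trf, C3, Saa1 and Cfb among them. For every gene the departure from the first mean includes weeks at which B6 mice carried hepatocyte RNA, and the value in parentheses leaves those weeks out. Groups of 2 samples are too small to test for single samples far from the others.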

How the results depend on the processing

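In the order difference at 4 w, departure from the other weeks and departure from 2 w and 9 w, 7365, 4695 and 5101 probes passed as reported. Normexp left 1569, 218 and 174 (34.7%, 45.9% and 46.6% toward DBA/2 mice, against 59.4%, 61.8% and 59.7%), and the unscaled value table gave 13461, 9105 and 7995 (94.4%, 96.4% and 92.0%). Median scaling lowered the departures to 1715 and 1790 (49.1% of the latter toward DBA/2 mice), and no filter on dim probes to 2140 and 2414 (49.6% of the latter). The 4 arrays alone gave 3017 differences, with fewer samples behind the spread. The slide as a random block gave 7174 departures from the other weeks. The replicate block gave 8610, 6213 and 6452. Replicate numbers coincide with scan days. Deviations of same-numbered samples correlated at 0.747 to 0.829 among DBA/2 mice at 0 w, 2 w, 4 w and 8 w, which shared their slides. Those of DBA/2 mice at 4 w and 9 w, on different slides, correlated at 0.016, and all pairs of groups ran from -0.025 to 0.829. Since not all groups deviated together, samples were not taken as pairs. The fit as reported thus treats the deviation shared by these DBA/2 groups as independent, and its cause was not tested. With 1 of the 4 samples left out, the counts were 5260 to 5755, 3049 (without B6 replicate 2) to 3384, and 3668 to 3984. The other settings stayed within 1.5 times of each count. The cause of these shifts was not tested.

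Of 156 named probes, 39 kept their direction but not the call under normexp, and 3 under normexp with quantile normalization. The sign turned under normexp for Alb -0.24, Cd163 -0.081, Ermap -0.43, Il4 -0.027, Eif2ak2 -0.38, Lbp -0.19, Ccl24 -0.33, Il12rb1 -0.22, Spi1 -0.52, Asb2 -0.026, Zfp819 -0.48 and Brd8 -0.40. It turned in the unscaled value table for Gzmb 0.20, Ccr7 0.46, Tgfb1 0.049, Cd55 0.67, Cr2 0.78, Zfp384 0.71 and Gapdh 0.58, and for Gapdh under quantile normalization (0.086) and normexp with quantile normalization (0.068). Signals near background limit the dim genes, which are given as bounds.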

Other observations

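Immediate early genes, which respond within minutes to stimulation, were higher in 11 of 21 and lower in 3, against 19.1% higher and 13% lower over all probes, or 4 higher and 1 lower after normexp correction. Atf3, a stress-induced transcription factor, had levels of -1.88 and -2.04 in DBA/2 mice and -3.75 and -4.07 in B6 mice (difference 1.95, SE 0.16, limma adjusted p = 1.28e-05), and Ier2 differed by 1.12. Another probe of Ier2 differed by -0.55 and did not pass the test. Jund was lower, at 4.09 and 4.11 against 6.15 and 6.14 (difference -2.04). At 4 w, both DBA/2 samples lay above all other DBA/2 samples for 11 of the 21, against 2.82% of all probes. Both B6 samples lay above all other B6 samples for 8 of the 21, against 5.22% of all probes. The week thus stood apart in both strains for part of this list.

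Genes of the cell cycle gave 10 higher and 7 lower of 27, against 19.1% higher and 13% lower over all probes. After normexp correction 1 higher and 2 lower passed the test and the median turned from 0.35 to -0.40. Ube2c, a ubiquitin-conjugating enzyme of mitosis, had levels of 1.71 and 1.49 against 3.83 and 3.78 (difference -2.20), and Cdc20, which activates the same degradation machinery, differed by 1.08. The same shares over all probes apply to the next counts. Heat shock proteins gave 3 higher and 5 lower of 12 (1 higher and 1 lower after normexp correction). Hspa5, the chaperone of the endoplasmic reticulum, differed by 0.70. Glycolytic genes gave 4 higher and 5 lower of 18 (none in either direction after normexp correction), among them hexokinase 2 (Hk2) at 1.47. Of 11 S100 genes 5 were higher and 2 lower, with S100a6 at 1.27 and S100a10, the partner of annexin A2, at -1.84. None of these lists had a median difference over 0.52 or under -0.16.

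The share of probes well above background on all 4 arrays that differed at least 2-fold ran, over the autosomes and chromosome X, from 5.36% on chromosome 15 to 15.0% on chromosome 1, with 12.6% on chromosome 14 and 11.8% on chromosome 17, which carries the major histocompatibility complex. Chromosome Y, with 3 such probes, was left out of this range. Positions are those of the probes on mm8, and linked genes are not independent.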
